A study of Mus musculus with 83 samples.

Results

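The data describe 10 genes with which the colon epithelium meets bacteria, out of 37764 genes in a table of read counts from the colon of 83 mice. The genes were chosen by name. The filter on low counts kept 18325 genes, the 10 among them, but S100a8 and S100a9 passed it only through the older mice. Duox2, Duoxa2, Nox1 and Nos2 make reactive oxygen or nitric oxide, Saa1, Saa3, Lcn2, S100a8 and S100a9 code for secreted or released antimicrobial and acute-phase proteins, and Pigr carries immunoglobulin A across the epithelium. The series follows male C57BL/6J/Ukj mice, untreated and without a transgene, through normal aging, to ask where age-related change departs from a straight line. There were 16 mice aged 3 months, 16 aged 9 months, 16 aged 15 months, 17 aged 24 months and 18 aged 28 months. RNA came from the rinsed proximal section of the colon, which holds the muscle and connective tissue of the wall beside the epithelium.

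The libraries were prepared in 3 library batches, each with 4 to 7 mice of every age, and the total count per library lay between 23026370 and 75838290 pairs (median 35495123). All 10 epithelial marker genes (among them Epcam and Cdh1) were measured in every age group, with a summed level between 10762 and 18728 CPM (counts scaled by the normalized library size). Smooth muscle markers summed to between 696 and 4698 CPM. In bulk tissue, fewer cells of a type and less RNA per cell cannot be told apart.

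Colon epithelial cells sense bacteria through pattern receptors and through cytokines from immune cells of the lamina propria. DUOX2 is an NADPH oxidase of the surface epithelium that releases hydrogen peroxide into the lumen, and it reaches the cell surface only together with its maturation factor DUOXA2. NOX1 is the superoxide-making oxidase of colon epithelial cells, and NOS2 is the inducible nitric oxide synthase. SAA1 and SAA3 are acute-phase serum amyloid A proteins that are also made in the gut, LCN2 (lipocalin 2) binds bacterial siderophores, and S100A8 and S100A9 form calprotectin, a metal-binding protein abundant in neutrophils. PIGR, the polymeric immunoglobulin receptor, moves dimeric immunoglobulin A from plasma cells to the lumen.

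Duox2 and Duoxa2 lie head to head on chromosome 2 of GRCm38, at 122279247 to 122298449 on the minus strand and 122298900 to 122302885 on the plus strand, with RefSeq start sites 673 bases apart. Saa1 (chromosome 7, 46740497 to 46742980) and Saa3 (46711998 to 46715700) share a cluster, as do S100a8 (chromosome 3, 90668978 to 90670035) and S100a9 (90692632 to 90695721). Their RefSeq starts are 27304 and 26650 bases apart. Nox1 is on chromosome X (134086421 to 134221956), Nos2 on chromosome 11 (78920787 to 78960254), Lcn2 on chromosome 2 (32384633 to 32388252) and Pigr on chromosome 1 (130826684 to 130852249).

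The 250 bases before the gene start are shown for the members whose window held no annotated exon, because these members stand for the different age patterns described next. RefSeq promoter windows on GRCm38.p6 matched 9 of the 10 members. That of Nox1 lies before the RefSeq start at 134111854, which is inside the Nox1 gene span given above and not at its end. The windows are chr2:122298650-122298899 (plus strand) for Duoxa2, chrX:134111855-134112104 (minus) for Nox1, chr7:46742981-46743230 (minus) for Saa1, chr3:90695722-90695971 (minus) for S100a9 and chr1:130826434-130826683 (plus) for Pigr. Sequences run 5′ to 3′ on the gene's strand, and capitals mark the motif matches named after them.
Duoxa2: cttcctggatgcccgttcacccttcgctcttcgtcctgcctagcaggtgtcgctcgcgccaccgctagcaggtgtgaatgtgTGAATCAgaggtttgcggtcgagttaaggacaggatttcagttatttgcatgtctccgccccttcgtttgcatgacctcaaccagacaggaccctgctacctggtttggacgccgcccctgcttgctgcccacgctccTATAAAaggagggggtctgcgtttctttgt
Nox1: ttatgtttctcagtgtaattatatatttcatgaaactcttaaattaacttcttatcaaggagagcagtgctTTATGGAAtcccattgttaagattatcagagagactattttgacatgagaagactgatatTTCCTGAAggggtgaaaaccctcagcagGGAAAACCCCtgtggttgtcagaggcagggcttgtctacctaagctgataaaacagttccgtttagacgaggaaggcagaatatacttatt
Saa1: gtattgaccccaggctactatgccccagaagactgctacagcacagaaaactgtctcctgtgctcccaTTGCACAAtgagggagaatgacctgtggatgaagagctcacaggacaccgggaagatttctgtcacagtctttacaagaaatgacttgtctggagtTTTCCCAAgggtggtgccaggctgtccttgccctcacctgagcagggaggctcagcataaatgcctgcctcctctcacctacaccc
S100a9: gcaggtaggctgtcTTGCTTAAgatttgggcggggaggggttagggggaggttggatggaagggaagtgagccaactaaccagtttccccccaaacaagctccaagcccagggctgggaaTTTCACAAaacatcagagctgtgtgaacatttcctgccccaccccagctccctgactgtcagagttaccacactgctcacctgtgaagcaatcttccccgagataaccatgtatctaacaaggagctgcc
Pigr: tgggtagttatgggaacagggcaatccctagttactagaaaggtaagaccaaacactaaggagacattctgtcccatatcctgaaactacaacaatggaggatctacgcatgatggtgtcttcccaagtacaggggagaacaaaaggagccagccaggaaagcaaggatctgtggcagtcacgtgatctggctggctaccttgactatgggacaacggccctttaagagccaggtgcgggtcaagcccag

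Each motif was searched on both strands in all 32851 RefSeq windows of the same length, and no 2 matches overlapped in the windows shown. The C/EBP motif TTNNGNAA was in 7 of the 9 member windows (Duox2, Nox1, Saa1, Saa3, Lcn2, S100a8 and S100a9) and in 36.9% of all windows. Of those 7 windows, 4 overlapped annotated exons, by 222 of 250 bases for Duox2, 197 for Lcn2, 93 for S100a8 and 24 for Saa3. Among the 5 exon-free member windows 3 held the motif (Nox1, Saa1 and S100a9), and the share of all windows was not restricted to exon-free ones. TATAAA, the TATA box, was in 2 member windows, Duoxa2 and S100a8, against 12.4% of all. In both it lay 30 to 25 bases before the start. The AP-1 motif TGANTCA was in 1 member window, Duoxa2 (6.75% of all), the NF-κB motif in 1, Nox1 (3.90% of all), and the STAT motif TTCNNNGAA in 0 (7.02% of all). No searched motif was in the Pigr window. A match is a string of letters and not evidence of binding.

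On the per-length scale of TPM (counts divided by exon length and scaled to the same total in every mouse), the 10 genes spanned from among the most abundant to barely detected. Pigr had a mean of 3236 ± 356 TPM (SD over 83 mice) and ranked 26th of 37652 genes with a length. Saa1 followed with 224 ± 110 TPM, Duox2 with 145 ± 46.6, Duoxa2 with 102.5 ± 53.0 and Nox1 with 28.3 ± 9.52. These 5 are the abundant members of the set. Saa3 had 6.91 ± 2.94 TPM, Nos2 5.54 ± 3.96, Lcn2 1.92 ± 0.613, S100a9 1.625 ± 1.503 and S100a8 0.826 ± 0.773. Pigr exceeded Saa1, Duoxa2 exceeded Nox1 and Nox1 exceeded Saa3 in all 83 mice. Duox2 exceeded Duoxa2 and Nos2 exceeded Lcn2 in 79 mice each, and S100a9 exceeded S100a8 in 70. The neighbours Saa3 and Nos2 kept their order in only 53 mice, Lcn2 and S100a9 in 58 and Saa1 and Duox2 in 63, and their levels overlapped within 1 SD.

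Most of the 10 genes varied more between mice than other genes of like abundance. After age and batch means were removed, the SD of log2 CPM was 0.60 for Duoxa2, 0.54 for Saa1, 0.48 for Nox1 and 0.39 for Duox2. That placed them above 99.8%, 99.1%, 98.7% and 97.5% of the genes of the same abundance decile. Nos2 had an SD of 0.79, above 96.6% of its decile, and Saa3 0.60, above 95.4%. S100a9 (0.78) and S100a8 (0.75) were above 94.9% and 94.1%. Pigr had a small SD of 0.16, above 74.4% of its decile. Lcn2 (0.30) was the least variable member for its abundance, above 39.7% of its decile.

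**Figure D1:**
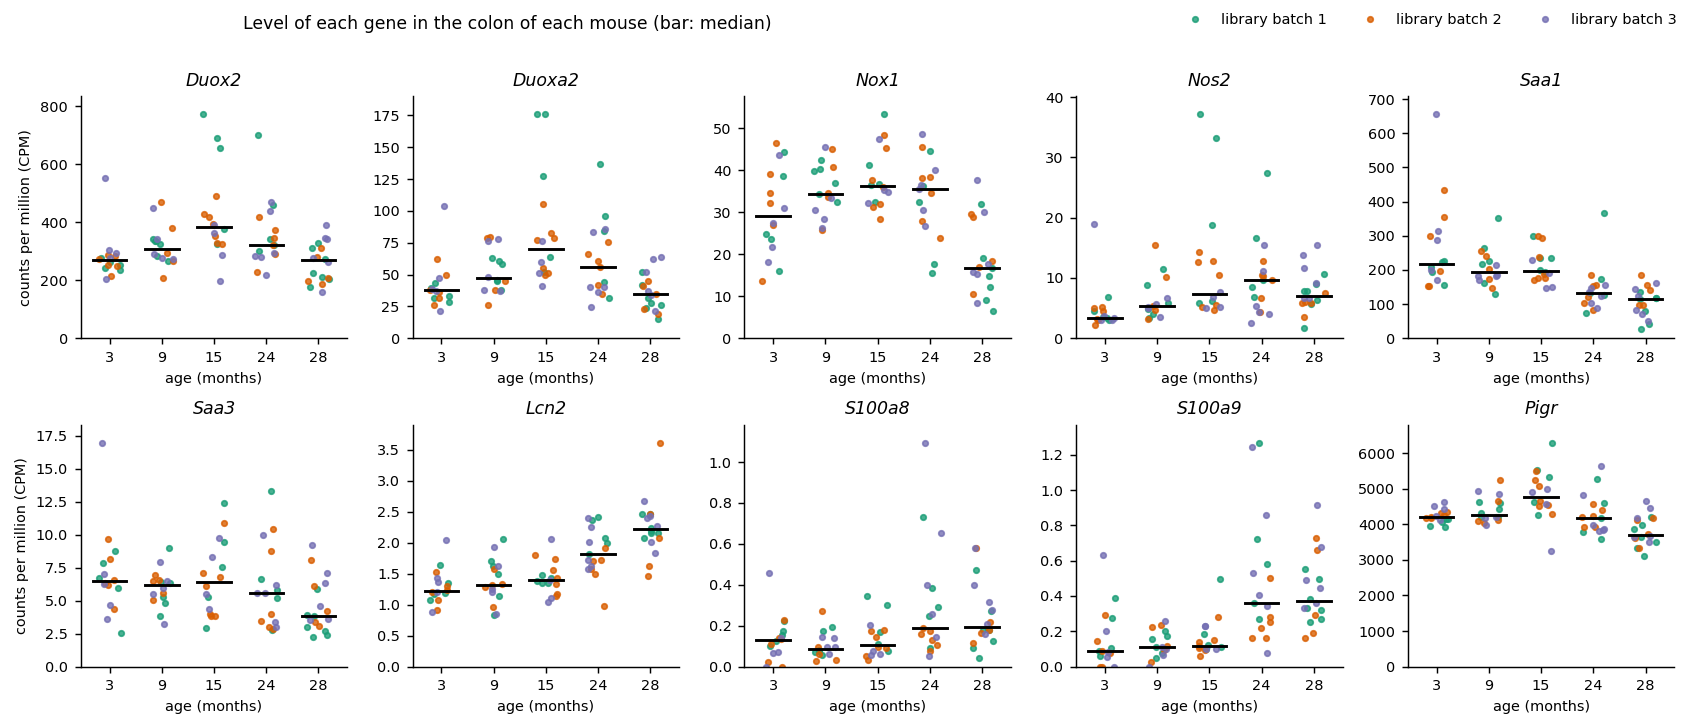
The level of each of the 10 genes in the colon of each mouse, in CPM (y axis), by age in months (x axis), with 1 point a mouse, coloured by library batch, and a bar at the median of each age. Duox2, Duoxa2, Nos2 and Pigr are highest in a few 15-month mice, Nox1 is low at 28 months, Saa1 is lower and Lcn2 higher at the oldest ages, and the ranges of the ages overlap for every gene.

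Every one of the 10 genes differed among the 5 ages (edgeR quasi-likelihood test on the 4 age terms with library batch as a covariate, Benjamini-Hochberg adjusted p below 0.1), as did 54.9% of all tested genes. S100a8 and S100a9, which are in these counts, entered the test through the ages at which they were high. The adjusted p ranged from 3.72e-10 for Lcn2 to 0.075 for Saa3. A linear trend in age was called for 8 members, 4 higher and 4 lower with age, against 53.6% of all genes (26.0% higher, 27.6% lower). Departure from a straight line was called for 5 members, Duox2, Duoxa2, Nox1, Nos2 and Pigr, against 16.2% of all genes. The members thus divided by shape: Saa1, Saa3, Lcn2, S100a8 and S100a9 had a trend with no called departure from it, Duox2 and Duoxa2 a departure with no called trend, and Nox1, Nos2 and Pigr both. A departure that missed the threshold does not show a straight course, and that of S100a9 (edgeR adjusted p = 0.142) was called in 3 of 83 fits that left out 1 mouse, with an adjusted p down to 0.0862 (without replicate 15 of 15 months).

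Adjacent ages gave few calls early in life and more later. At 9 against 3 months no member was called, against 8.69% of all genes, and none had an unadjusted p below 0.05. The lowest adjusted p there was that of Saa1 (0.278, log2 fold change -0.35). At 15 against 9 months no member was called, against 0.431% of all genes (79 genes). Without adjustment, 4 members, Duox2, Duoxa2, Nos2 and Pigr, had a p below 0.05 in that comparison, as did 1683 genes.

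From 24 months on, calls were more frequent. At 24 against 15 months 5 members were called, against 13.5% of all genes: Lcn2, S100a8 and S100a9 were higher (6.28% of all genes) and Saa1 and Pigr lower (7.24%). S100a8 and S100a9, counted here and at 28 against 3 months, entered the tests through mice of 24 and 28 months. In a fit of only 15 and 24 months they were not tested, and 3 members (Saa1, Lcn2 and Pigr) were called. At 28 against 24 months 5 were called, against 11.7% of all genes: Lcn2 was higher (5.66%) and Duox2, Duoxa2, Nox1 and Pigr lower (6.01%). Between the ends of the series, 28 against 3 months, 8 members were called, against 49.4% of all genes. Of these, Nos2, Lcn2, S100a8 and S100a9 were higher (23.5% of all genes) and Nox1, Saa1, Saa3 and Pigr lower (25.9%). The median log2 fold change of the 10 members was -0.33 at 28 against 24 months and -0.13 at 28 against 3 months, beside -0.0055 and -0.0087 for all tested genes. Adjacent comparisons share the mice of the age between them.

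**Figure D2:**
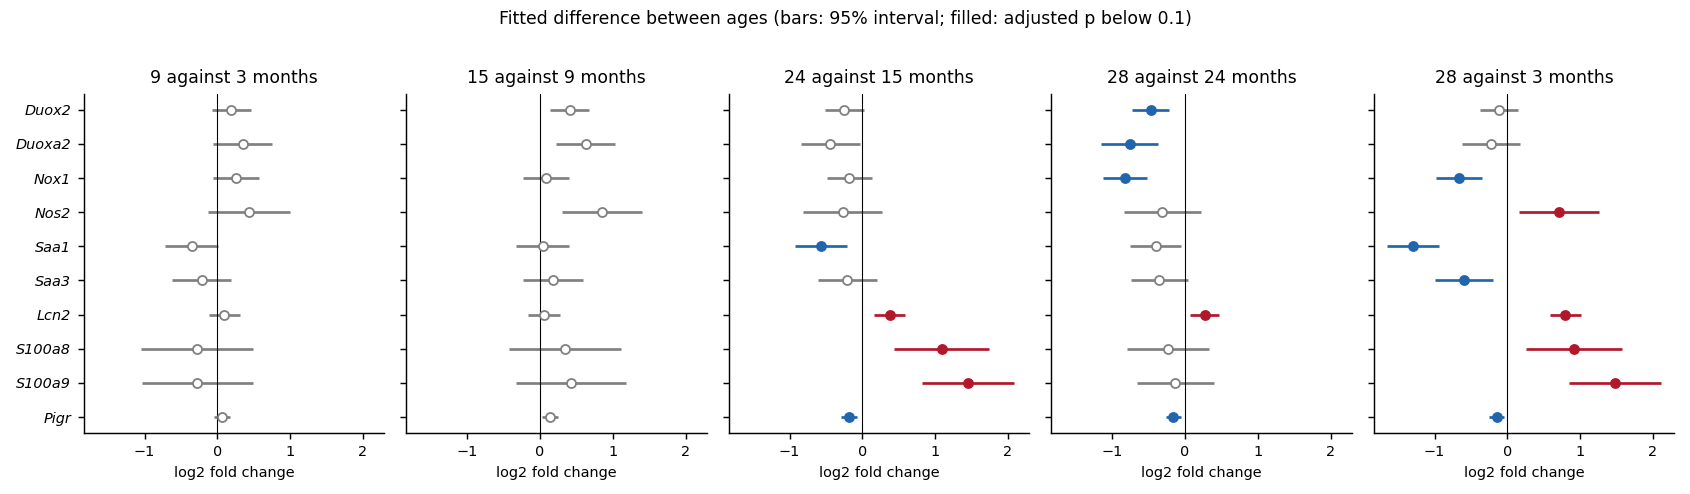
Fitted log2 fold change (x axis) of each gene (rows) in 5 comparisons of ages (panels), with 95% intervals; filled points have an adjusted p below 0.1, red for higher and blue for lower at the older age. No point is filled at 9 against 3 or 15 against 9 months, and at 28 against 3 months Saa1 lies at -1.29 and S100a9 at 1.47.

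Duox2 and Duoxa2, the hydrogen peroxide oxidase and its maturation factor, followed the same course, with the highest medians at 15 months and lower medians at 24 and 28 months. Duox2 had a lowest, median and highest level of 204, 268 and 553 CPM at 3 months, 207, 309 and 468.5 at 9 months, and 197, 383 and 772 at 15 months. At 24 months these were 219, 323 and 699.8 CPM, and at 28 months 160, 268.5 and 389.6 CPM. The oldest and youngest mice thus had close medians, and the ranges of all ages overlapped. Between 24 and 28 months Duox2 fell by 0.47 on the log2 scale (SE 0.13, edgeR adjusted p = 0.0164), and 14 of 18 mice of 28 months were below the 24-month median.

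Duoxa2 had 21.5, 37.6 and 103.5 CPM at 3 months, 26.0, 47.0 and 79.6 at 9 months and 40.6, 69.8 and 176 at 15 months. At 24 months it had 24.8, 55.7 and 137 CPM and at 28 months 15.2, 34.3 and 63.8 CPM. All 16 mice of 15 months were above the 3-month median, and all 18 mice of 28 months were below the 15-month median. Duoxa2 fell by 0.76 between 24 and 28 months (SE 0.20, edgeR adjusted p = 0.0107). The differences of 15 against 9 months, 0.41 (SE 0.14) for Duox2 and 0.63 (SE 0.21) for Duoxa2, did not pass (edgeR adjusted p = 0.236 and 0.229). Nor did those of 24 against 15 months, -0.25 (SE 0.13) for Duox2 and -0.44 (SE 0.20) for Duoxa2 (edgeR adjusted p = 0.249 and 0.167). Without replicate 4 of 24 months these were -0.33 and -0.55 and were called (edgeR adjusted p = 0.0978 and 0.0735). Departure from a line was called for both (edgeR adjusted p = 0.000142 and 4.15e-05). At 28 against 3 months the differences were -0.12 (95% interval -0.38 to 0.14) for Duox2 and -0.22 (-0.62 to 0.18) for Duoxa2.

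Nox1, the superoxide-making oxidase, was at its lowest at 28 months. It had 13.6, 29.1 and 46.4 CPM at 3 months, 25.8, 34.4 and 45.55 at 9 months and 28.3, 36.2 and 53.3 at 15 months. At 24 months the values were 15.6, 35.6 and 48.6 CPM, and at 28 months 6.58, 16.8 and 37.7 CPM. Of the first 4 ages, 3 months had the lowest median, and 13 of 16 mice of 9 months and 15 of 16 of 15 months were above it. The 9 against 3 month difference of 0.25 was not called (edgeR adjusted p = 0.401). Of the mice of 28 months, 17 of 18 were below the 24-month median. Nox1 fell by 0.82 between 24 and 28 months (SE 0.16, edgeR adjusted p = 0.000357) and was lower at 28 than at 3 months by a log2 fold change of -0.66 (SE 0.16, edgeR adjusted p = 0.000458). Its departure from a line was called (edgeR adjusted p = 0.000142). Within the 3 library batches the 28 against 24 month difference was -0.94, -0.80 and -0.95.

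Nos2, the inducible nitric oxide synthase, was higher in old than in young mice and had its widest spread at 15 months. It had 2.13, 3.39 and 18.9 CPM at 3 months, 3.115, 5.28 and 15.5 at 9 months and 4.73, 7.275 and 37.1 at 15 months. At 24 months it had 2.49, 9.63 and 27.5 CPM and at 28 months 1.71, 7.06 and 15.5 CPM. In the youngest group 1 mouse stood far above the others, and 17 of 18 mice of 28 months were above the 3-month median. Nos2 rose by 0.71 between 3 and 28 months (SE 0.28, edgeR adjusted p = 0.0343). Without the highest 3-month mouse, replicate 14, that difference was 1.085 (edgeR adjusted p = 0.000666). The 15 against 9 month difference was 0.85 (SE 0.28, edgeR adjusted p = 0.232). Departure from a line was called (edgeR adjusted p = 0.0279) but not without replicate 1 of 15 months (edgeR adjusted p = 0.102).

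The high 15-month values of Duox2, Duoxa2, Nos2 and Pigr came mainly from library batches 1 and 2. At 15 against 9 months the log2 difference of Duox2 was 0.77 in batch 1, 0.32 in batch 2 and -0.10 in batch 3. That of Duoxa2 was 1.04, 0.50 and 0.08, and that of Nos2 was 1.39, 0.38 and 0.24. Pigr had a smaller difference, 0.23, 0.13 and -0.01. The later decline had the same order: the 28 against 24 month difference was -0.74, -0.49 and -0.16 for Duox2 and -1.24, -0.81 and -0.16 for Duoxa2. For Nos2 it was -0.95, -0.61 and 0.78, so that batch 3 went the opposite way. A test of whether the age pattern differed between batches called none of the 10 members (edgeR, each adjusted p = 1), against 0.0218% of all genes (4 genes). Its unadjusted p was below 0.05 for Nos2 (0.00744), Duox2 (0.0176) and Duoxa2 (0.0492), and for 692 genes in all. Each point of this comparison rests on 4 to 7 mice.

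**Figure D3:**
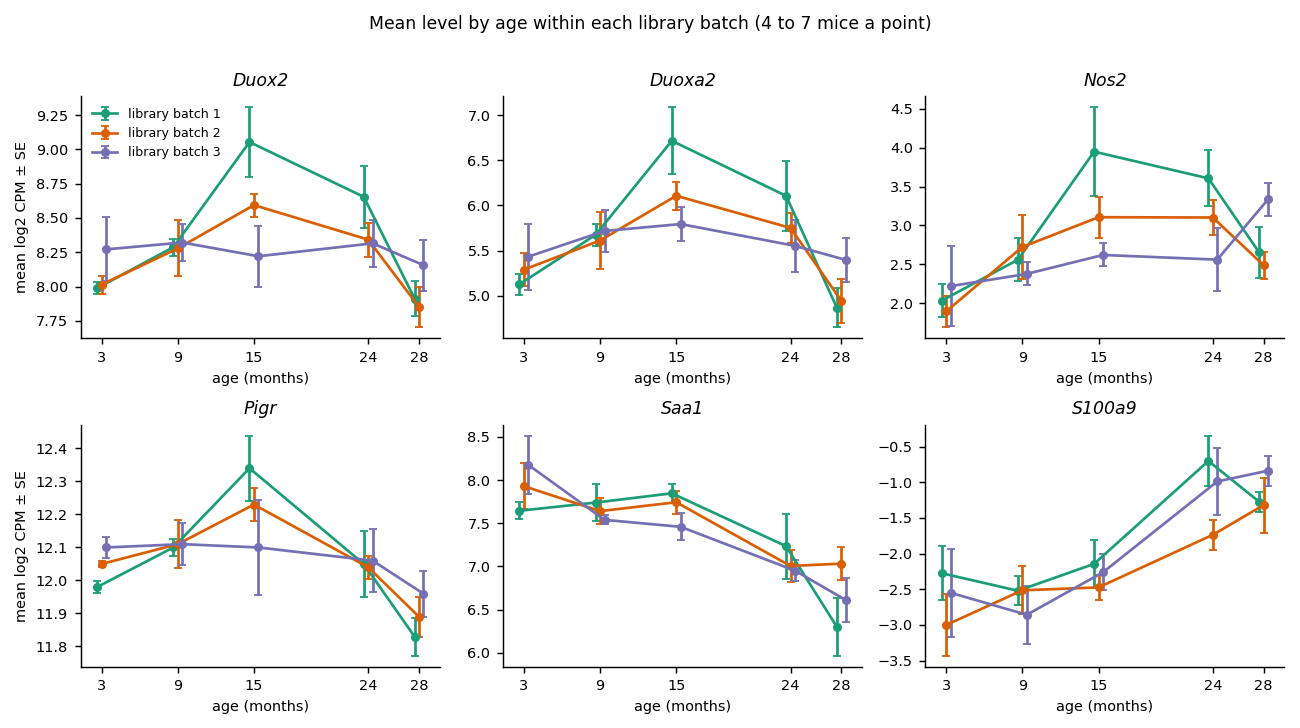
Mean log2 CPM ± standard error (y axis) by age in months (x axis) of 6 of the genes within each library batch, with 4 to 7 mice a point. Duox2, Duoxa2, Nos2 and Pigr peak at 15 months in batch 1, less in batch 2 and not clearly in batch 3, while Saa1 is lower and S100a9 higher at 24 and 28 months than at 3 months in all 3 batches.

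Saa1, an acute-phase protein, had the largest decline of the set. Its lowest, median and highest levels were 152.5, 216 and 656 CPM at 3 months, 128, 193.5 and 352.5 at 9 months and 147, 197 and 299 at 15 months. At 24 months they were 74.4, 131.5 and 365 CPM and at 28 months 28.0, 115 and 186 CPM. All 18 mice of 28 months were below the 3-month median, although the ranges still overlapped. Saa1 fell by 0.57 between 15 and 24 months (SE 0.18, edgeR adjusted p = 0.0385) and by 1.29 between 3 and 28 months (SE 0.18, edgeR adjusted p = 1.455e-08), to 0.408 of the 3-month level. The 28 against 3 month difference was -1.34, -0.90 and -1.56 in the 3 batches. Reads that matched both Saa1 and its near-identical neighbour Saa2 were not counted, and Saa2 itself had a mean of 0.278 CPM, so the division between these genes is uncertain.

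Saa3, the paralog of serum amyloid A known from macrophages and fat as well as epithelium, was lower and declined less. It had 2.51, 6.47 and 17.0 CPM at 3 months, 3.21, 6.16 and 8.985 at 9 months and 2.90, 6.43 and 12.4 at 15 months. At 24 months it had 2.75, 5.535 and 13.3 CPM and at 28 months 2.26, 3.86 and 9.17 CPM. Of the 18 mice of 28 months, 15 were below the 3-month median. Saa3 fell by 0.60 between 3 and 28 months (SE 0.20, edgeR adjusted p = 0.0134), with -0.84, -0.52 and -0.29 in the batches. The test among all ages kept its call in 66 of 83 fits that left out 1 mouse. It was weakest without replicate 14 of 3 months (edgeR adjusted p = 0.148), where the linear trend was lost too (edgeR adjusted p = 0.1003). With the mean of the epithelial markers as a covariate the 28 against 3 month difference was -0.41 (edgeR adjusted p = 0.1003).

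Lcn2, the siderophore-binding lipocalin, rose late in life and had the lowest adjusted p of the set among all ages. It had 0.883, 1.22 and 2.04 CPM at 3 months, 0.829, 1.32 and 2.06 at 9 months and 1.04, 1.39 and 2.05 at 15 months. At 24 months it had 0.974, 1.81 and 2.41 CPM and at 28 months 1.455, 2.22 and 3.61 CPM. All 18 mice of 28 months were above the 3-month median. Lcn2 rose by 0.37 between 15 and 24 months (SE 0.11, edgeR adjusted p = 0.0212), and by 0.80 between 3 and 28 months (SE 0.11, edgeR adjusted p = 3.94e-09), a 1.74-fold difference. The 28 against 3 month difference was 0.80, 0.805 and 0.73 in the 3 batches. The step from 24 to 28 months, 0.27 (SE 0.10, edgeR adjusted p = 0.0883), was past the threshold in 70 of 83 fits that each left out 1 mouse, with an adjusted p of up to 0.186 (without replicate 17 of 28 months). Lcn2 stood at 1.92 TPM, far below Saa1 and Duox2.

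S100a8 and S100a9, the subunits of calprotectin, were barely detected, with their highest medians at 24 and 28 months. The counts per library were 0 to 36 for S100a8 (0 in 2 mice) and 0 to 41 for S100a9 (0 in 4 mice), and a count of 0 allows up to 3 counts. S100a9 had medians of 0.0873, 0.108 and 0.118 CPM at 3, 9 and 15 months and of 0.358 and 0.370 CPM at 24 and 28 months. Its highest values were 0.633, 0.260, 0.4985, 1.27 and 0.916 CPM at the 5 ages. S100a8 had medians of 0.128, 0.0864, 0.103, 0.189 and 0.194 CPM, with a highest value of 1.095 CPM at 24 months. Between 15 and 24 months S100a9 rose by 1.45 (SE 0.32, edgeR adjusted p = 0.00211) and S100a8 by 1.09 (SE 0.33, edgeR adjusted p = 0.0306). The filter asked for 0.282 CPM (before TMM scaling) in more than 14.2 mice. S100a9 was over that level in 26 mice of 24 and 28 months and 4 younger mice, and S100a8 in 13 and 3, so without the 2 older groups neither would have been tested. In a fit of only 15 and 24 months neither passed, and without a filter both were still called at 24 against 15 months. At 28 against 3 months the differences were 1.47 (SE 0.32, edgeR adjusted p = 0.000131) and 0.91 (SE 0.33, edgeR adjusted p = 0.0221), with all 18 mice of 28 months above the 3-month median of S100a9 and 14 above that of S100a8. Within the batches the 24 against 15 month difference was 1.44, 0.74 and 1.27 for S100a9 and 0.58, 0.31 and 1.33 for S100a8. The 28 against 3 month difference was 1.00, 1.68 and 1.71 for S100a9. For S100a8 it was 0.09, 0.97 and 1.22, and in batch 1 the 28 against 15 month difference of that gene was -0.10.

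Neutrophils carry much calprotectin, so the neutrophil markers are given beside these genes. Of 12 markers, 7 (Cxcr2, Mmp8, Elane, Mpo, Camp, Ngp and Stfa2l1) had a median below 0.1 CPM over all 83 mice. The list summed to between 5.12 and 26.3 CPM over all mice, with medians of 8.29, 10.4, 12.1, 10.7 and 9.49 CPM from 3 to 28 months. All 5 tested markers differed among the ages (54.9% of all genes), 1 of them higher and 1 lower at 28 against 3 months (23.5% and 25.9% of all genes). Retnlg, a neutrophil-secreted resistin-like protein, was higher (log2 fold change 1.36, edgeR adjusted p = 0.000872). Ly6g, the defining surface marker of mouse neutrophils, was lower, with a mean of 3.40 CPM at 3 months and 1.56 at 28 months (log2 fold change -1.11, edgeR adjusted p = 0.00639). A linear trend was called for 4 of the 5 markers (53.6% of all genes), with Retnlg, Csf3r and Il1r2 higher with age and Ly6g lower. At 24 against 15 months, where S100a8 and S100a9 rose, 1 marker was called (13.5% of all genes): Mmp9, a secreted gelatinase, was lower (-0.39, edgeR adjusted p = 0.0815). The mean of the tested markers had a Pearson's r of 0.19 with S100a8 and of 0.08 with S100a9 over 83 mice once age and batch means were removed. Spearman's rho was 0.14 and 0.08, and neither relation passed (adjusted permutation p = 0.21 and 0.665 for r). The batches differed, with r of 0.48, 0.02 and 0.06 for S100a8 and of 0.36, -0.22 and 0.11 for S100a9 in batches 1 to 3. The part of neutrophils in the 2 age differences was not tested.

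Pigr, the immunoglobulin A transporter, was the most abundant member, and its called differences were small. It had 3927, 4196 and 4641 CPM at 3 months, 3973, 4266 and 5245 at 9 months and 3260, 4784 and 6301 at 15 months. At 24 months it had 3594, 4188 and 5634 CPM and at 28 months 3111, 3705 and 4658 CPM. The highest median was at 15 months, and all 18 mice of 28 months were below it. Pigr fell by 0.19 between 15 and 24 months (SE 0.06, edgeR adjusted p = 0.0251), by 0.16 between 24 and 28 months (SE 0.05, edgeR adjusted p = 0.0478) and by 0.15 between 3 and 28 months (SE 0.05, edgeR adjusted p = 0.0229). Departure from a line was called (edgeR adjusted p = 0.000289). Within the batches the 24 against 15 month difference was -0.28, -0.20 and -0.03. The 28 against 24 month call was lost in 4 of 83 fits that left out 1 mouse, those without replicates 4 and 11 of 24 months and replicates 7 and 17 of 28 months (edgeR adjusted p up to 0.143).

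The immunoglobulin genes whose product PIGR carries also differed with age. All 6 genes of the immunoglobulin A and joining chain list differed among the ages (54.9% of all genes), 2 of them higher at 28 than at 3 months (23.5% of all genes). Igha, the immunoglobulin A heavy chain, had 2266 ± 506 CPM (SD, n = 16) at 3 months, 4297 ± 2833 (n = 16) at 15 months, 3729 ± 1586 (n = 17) at 24 months and 2758 ± 1155 (n = 18) at 28 months. Igkc, the kappa light chain, had 1551 ± 343, 2896 ± 1716, 2696 ± 1035 and 2108 ± 786 CPM at these ages and was higher at 28 than at 3 months (log2 fold change 0.42, edgeR adjusted p = 0.0449). The list summed to medians of 4552, 5783, 6288, 7392 and 5487 CPM from 3 to 28 months, highest at 24 months, and the highest single mouse, at 15 months, had 21333 CPM. Immunoglobulin genes share sequence, and only uniquely mapped reads were counted, so their levels are uncertain.

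The same few mice were often highest in several of the genes. Replicate 14 of 3 months (batch 3) was the highest of its age in 8 of the 10 members, all but Nox1 and Pigr. It had 553 CPM of Duox2, 18.9 of Nos2, 656 of Saa1 and 17.0 of Saa3. Without it the 28 against 3 month calls remained for all 8 members, with a log2 fold change of -1.12 for Saa1, -0.44 for Saa3 (edgeR adjusted p = 0.0687) and 1.755 for S100a9. Replicate 15 of 15 months (batch 1) was the highest of its age in 7 members, among them Duox2, Duoxa2, Nox1 and Pigr.

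From mouse to mouse at a given age, Duox2, Duoxa2, Nos2 and Pigr varied together. After age and batch means were removed from log2 CPM, Duox2 and Duoxa2 had a Pearson's r of 0.91 and a Spearman's rho of 0.91 over 83 mice, with 0.92, 0.88 and 0.915 in the 3 batches. Without the 2 mice farthest from the Duox2 median r was 0.91. Duoxa2 and Nos2 had r = 0.83 and rho = 0.80, and Duox2 and Nos2 r = 0.81 and rho = 0.80. The transporter Pigr had r = 0.76 and rho = 0.75 with Duox2, r = 0.70 and rho = 0.74 with Duoxa2, and r = 0.58 and rho = 0.62 with Nos2. All 6 pairs had a two-sided permutation p of 1e-05 for both measures, the smallest that 100000 resamples can give (adjusted over 45 pairs 5.625e-05 for r and 6.429e-05 for rho).

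The other oxidase, Nox1, was tied less closely to this group, with r = 0.525 and rho = 0.52 with Duoxa2 and r = 0.47 and rho = 0.46 with Duox2. Both passed (adjusted permutation p at most 0.00015), as did Saa1 with Saa3 (r = 0.44, rho = 0.39, adjusted permutation p at most 0.00057). The latter pair had r = 0.43, 0.52 and 0.37 within the batches and 0.41 without the 2 farthest mice. S100a8 and S100a9 had r = 0.53 and rho = 0.40 on few counts (0.49 and 0.37 without the 2 farthest mice). Lcn2 stood apart: of its 9 pairs only that with S100a8 passed with both measures (r = 0.33, rho = 0.34). With Nox1 it had r = -0.22 and rho = -0.25, which passed for rho only (adjusted permutation p = 0.068 for r and 0.0415 for rho). With Duox2 Lcn2 had r = -0.08 and rho = -0.20. In batch 2 its r with Duox2 was -0.54 and in batch 3 it was 0.23. Of all 45 pairs, 24 passed with both measures (adjusted permutation p below 0.05), all positive, and 18 without the 2 farthest mice.

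**Figure D4:**
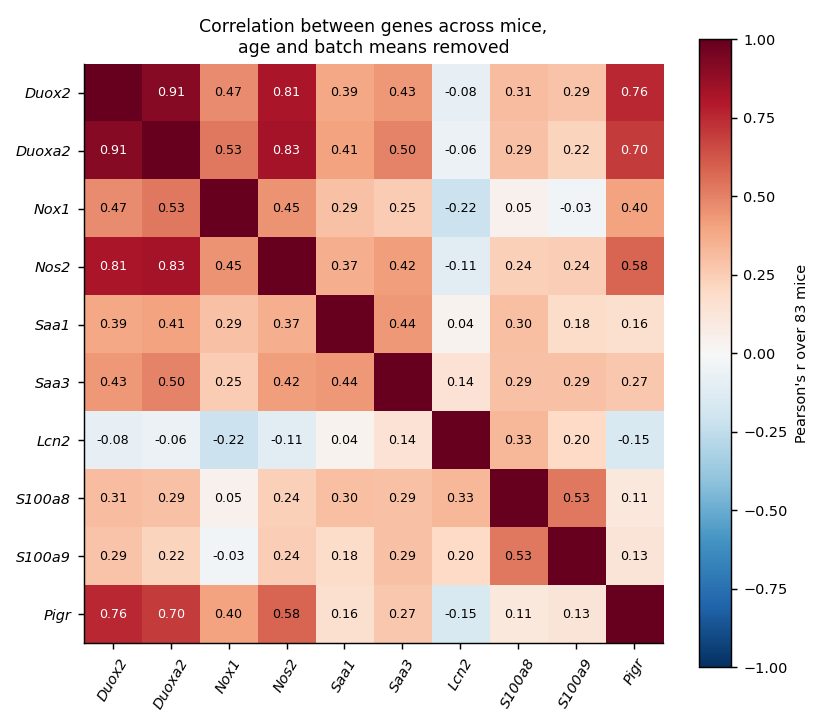
Pearson's r (colour and number) between each pair of the 10 genes over 83 mice, on log2 CPM with age and batch means removed. The block of Duox2, Duoxa2, Nos2 and Pigr holds values from 0.58 to 0.91, while the row of Lcn2 lies between -0.22 and 0.33.

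**Figure D5:**
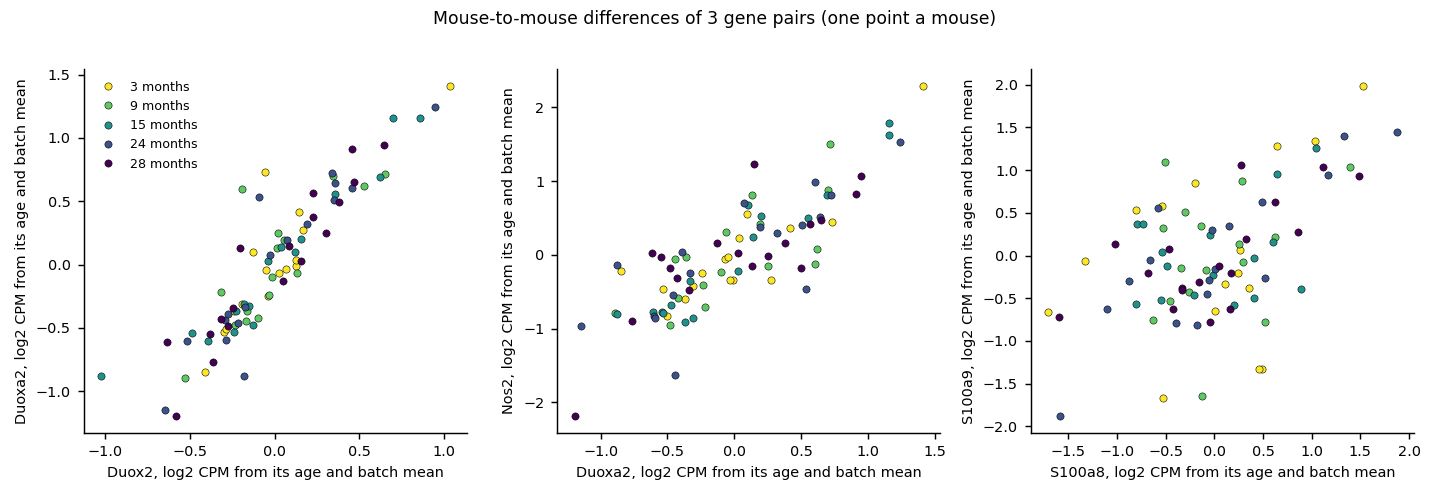
Log2 CPM of 1 gene against another, each as the difference from its age and batch mean, with 1 point a mouse coloured by age, for Duox2 and Duoxa2, Duoxa2 and Nos2, and S100a8 and S100a9. The first 2 pairs (r = 0.91 and 0.83) lie along a line at all ages, and the third (r = 0.53) scatters widely.

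The genes most alike to each member over the 83 mice, among 18324 other tested genes, are given by Spearman's rho as a description. Duox2 had Duoxa2 (0.91), Nos2 (0.80) and 4930581F22Rik (0.76), and Duoxa2 had Duox2, Nos2 and the gasdermin Gsdmc4 (0.79). Nos2 had Duoxa2, Duox2 and Zc3h12a (0.75), an RNase that degrades cytokine transcripts. Among all tested genes, Duox2 and Duoxa2 were thus each other's closest match, and Nos2 came next for both. Pigr had Anxa13 (0.79), Pla2g4c (0.78) and Duox2 (0.75). Nox1 had Clca3b (0.82), Il1rl1, the interleukin 33 receptor (0.71), and Gpx2, the epithelial glutathione peroxidase (0.70). Saa1 had the trypsin inhibitor gene Spink1 (0.71), the carbonic anhydrase gene Car4 (0.69) and Crisp3 (0.64). Among the genes closest to Saa3 were 9130204K15Rik (0.56) and Prdm1 (0.55). The closest genes to the scarce members had lower values, Lcn2 with Bricd5 (0.43), Naxe (0.42) and Hmox2 (0.42), S100a8 with Gm5637 (0.49), Map3k6 (0.47) and Lrg1 (0.46), and S100a9 with Tmem125 (0.50), 2010001M07Rik (0.47) and Mall (0.47).

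Levels of immunoglobulin genes varied together with Duox2, Duoxa2, Nos2 and Pigr. The mean of the immunoglobulin A and joining chain genes had r = 0.67 and rho = 0.64 with Duoxa2, r = 0.58 and rho = 0.60 with Duox2, r = 0.59 and rho = 0.60 with Nos2, and r = 0.60 and rho = 0.63 with Pigr. Without the 2 farthest mice r was 0.67, 0.59, 0.63 and 0.57 in that order, and in batch 1 it reached 0.85 with Duoxa2, against 0.55 and 0.56 in batches 2 and 3. For each, the permutation p was 1e-05, the smallest possible (adjusted over 140 relations of 10 members with 14 lists, 9.33e-05 for r and 0.000117 for rho). Plasma cell markers, which share the joining chain with that list, gave r = 0.62 and rho = 0.58 with Duoxa2. Goblet cell markers gave r = 0.49 and rho = 0.49 with Duoxa2 and r = 0.48 and rho = 0.45 with Pigr (adjusted permutation p at most 0.00035). They also gave r = 0.43 and rho = 0.45 with Saa1 (adjusted permutation p at most 0.0004). With Nox1 they gave r = 0.41 and rho = 0.36 (adjusted permutation p at most 0.00533), but r was 0.64, 0.62 and 0.0088 in the 3 batches. Colonocyte markers gave r = 0.40 and rho = 0.44 with Saa1 (adjusted permutation p at most 0.000913), with r of 0.30, 0.58 and 0.41 in the batches. The mean of the neutrophil markers covers only the 5 tested of 12 listed. It gave r = 0.60 and rho = 0.49 with Saa1 and r = 0.55 and rho = 0.53 with Nox1 (adjusted permutation p at most 0.000117). With both Duoxa2 and Nos2 it gave r = 0.51 (rho = 0.47 and 0.44, adjusted permutation p at most 0.000389). Nox1 also varied with fibroblast markers (r = 0.57, rho = 0.50, adjusted permutation p at most 0.000117) and with macrophage markers (r = 0.56, rho = 0.46, adjusted permutation p at most 0.000389). The posterior Hox genes, which mark position along the colon, gave r = 0.46 and rho = 0.40 with Saa1 (adjusted permutation p = 0.000165 for r and 0.00133 for rho), with r of 0.43, 0.51 and 0.49 in the batches. The part of these cells, or of the position sampled, in the members' levels was not tested.

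Counts for the gene lists that follow are read against all tested genes, of which 54.9% differed among the ages and 49.4% at 28 against 3 months (23.5% higher, 25.9% lower). Among partners and relatives of the NADPH oxidases, 6 of 10 tested genes differed among the ages, near the share of all genes, 3 higher and 3 lower at 28 against 3 months. Cybb, the phagocyte oxidase, rose (log2 fold change 0.51, edgeR adjusted p = 3.19e-05), as did Nox4 (0.64, edgeR adjusted p = 4.59e-05). Noxo1, the organizer subunit of NOX1, had 120 ± 7.94 CPM at 3 months (SD, n = 16) and 113 ± 11.8 at 28 months (n = 18), and was lower (-0.10, edgeR adjusted p = 0.037). Duoxa1, the maturation factor of the other dual oxidase, had a mean of 0.127 CPM and was not tested.

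Of the bacterial pattern receptors and their adaptors, 10 of 16 differed among the ages, against 54.9% of all genes, 3 higher and 4 lower at 28 against 3 months (23.5% and 25.9% of all genes). Nlrp6, an inflammasome sensor of the gut epithelium, fell (log2 fold change -0.38, edgeR adjusted p = 3.24e-07), as did the kinase gene Irak4 (-0.28, edgeR adjusted p = 2.00e-06). Tlr1, a receptor for bacterial lipopeptides, rose (0.22, edgeR adjusted p = 0.000179). Tlr5, the flagellin receptor, differed among the ages, but not between the ends (-0.0013, edgeR adjusted p = 0.992). No single direction ran through the list, whose median log2 fold change was -0.02.

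Of 11 cytokines known to induce these genes, 5 (Il22, Il17a, Il17f, Il6 and Il36g) had a median below 0.1 CPM over all 83 mice, and 5 could be tested. Of these 3 differed among the ages and 4 at 28 against 3 months, 2 higher and 2 lower. Tnf rose (0.43 at 28 against 3 months, edgeR adjusted p = 0.00493) and so did Osm (0.55, edgeR adjusted p = 0.0128), while Il18, an epithelial cytokine, fell (-0.43, edgeR adjusted p = 0.00115). Il1b, the interleukin 1 beta gene, was also lower (-0.47, edgeR adjusted p = 0.0907), with a mean of 3.71 CPM at 3 months and 2.65 at 28 months. Of the receptors and signal factors 10 of 19 differed among the ages, near the 54.9% of all genes, 6 higher and 2 lower at 28 against 3 months (23.5% and 25.9% of all genes). Osmr, the oncostatin M receptor, rose by 0.38 (edgeR adjusted p = 7.45e-05), Il22ra1, the interleukin 22 receptor of the epithelium, by 0.22 (edgeR adjusted p = 0.014), Il1r1 by 0.17 (edgeR adjusted p = 0.00428) and the NF-κB inhibitor gene Nfkbia by 0.16 (edgeR adjusted p = 0.0249).

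Of other epithelial genes induced by bacteria, 12 of 16 tested differed among the ages, against 54.9% of all genes, 1 higher and 5 lower at 28 against 3 months (23.5% and 25.9% of all genes). The C-type lectin genes Reg3g and Reg3b, antibacterial proteins of the epithelium, fell by 2.53 (edgeR adjusted p = 2.07e-07) and 3.15 (edgeR adjusted p = 4.44e-07). Their 3-month means were uneven, 260 ± 510 CPM for Reg3g and 1027 ± 2359 for Reg3b (SD, n = 16), with SDs larger than the means, beside 44.3 ± 19.1 and 121 ± 79.8 at 28 months (n = 18). Tnfsf13, the plasma cell survival factor APRIL, had its highest mean at 15 months, 12.05 ± 1.15 CPM (n = 16), and fell by 0.27 between 24 and 28 months (edgeR adjusted p = 0.00145). Gbp2, an interferon-induced GTPase, rose by 0.60 between the same ages (edgeR adjusted p = 0.0147).

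Markers of other cell types are given as counts of genes higher and lower at 28 against 3 months, beside 23.5% higher and 25.9% lower of all tested genes. Macrophage markers had 5 higher and 0 lower of 7, goblet cell markers 1 higher and 5 lower of 6, colonocyte markers 0 and 2 of 6, epithelial markers 0 and 5 of 10, and smooth muscle markers 0 and 0 of 6. Plasma cell markers had 0 and 1 of 6, fibroblast markers 1 and 1 of 5, adipocyte markers 3 and 0 of 6, mesothelial markers 3 and 1 of 4 tested, hepatocyte markers 0 and 1 of 3 tested, and red blood cell markers 5 and 0 of 5. Between 24 and 28 months, where Nox1, Duox2 and Duoxa2 fell, 3 of 6 goblet cell markers were lower (6.01% of all genes). Clca1 fell by 0.91 (edgeR adjusted p = 0.000602), Fcgbp by 0.46 (edgeR adjusted p = 0.00388) and Agr2 by 0.22 (edgeR adjusted p = 0.0192). Muc2 was not called (-0.10, edgeR adjusted p = 0.288). At that step plasma cell markers had 3 lower of 6, immunoglobulin genes 2 of 6, neutrophil markers 2 of 5 tested and fibroblast markers 1 of 5. Epithelial, colonocyte and macrophage markers had 0 called. The posterior Hox genes had 0 of 4 tested called among the ages and 2 lower at 28 against 3 months. Their part in the members' age differences was not tested.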

How the data were processed

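Polyadenylated RNA of 83 colons was sequenced from strand-specific libraries, 1 per mouse. The authors trimmed reads (cutadapt 2.8), aligned them to GRCm38 (HISAT2 2.1.0), kept uniquely mapped pairs (SAMtools 1.9) and counted them per gene by strand (featureCounts of Subread 2.0.1), and the deposited values are whole-number counts without normalization. Counts of read pairs are not independent molecules, so a limit from a count of 0 covers counting error only. Between mice of the same age the counts differed by more than counting noise in every pair.

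All tests used edgeR 4.0.16 in R 4.3.3: filterByExpr by age, TMM, a quasi-likelihood fit of age group and library batch over all mice, and Benjamini-Hochberg adjustment over 18325 genes, called below 0.1 as in the paper. The linear trend is the fitted log2 change from 3 to 28 months. Levels are CPM on TMM library sizes, and TPM used exon lengths of 37652 genes. Correlations used log2 CPM with a prior count of 2, with permutation tests in Python 3.11.15 (scipy 1.17.1), and figures used matplotlib 3.10.9. The alternatives were DESeq2 1.42.0, limma-trend (limma 3.58.1), DESeq2's size factors, other filters on low counts, no batch term, a replicate block, a mean of the epithelial markers as a covariate, a robust fit, a threshold of 0.05, a fit restricted to the ages at hand, omission of 1 mouse at a time, and age by batch terms, which were added after the values were seen. The fit was tested on simulated data.

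The members and gene lists were chosen with earlier results of these data known. All 10 members are named. Of each list, at most the 4 genes with the lowest adjusted p over all ages are named, among those called, and for each member the 3 genes with the highest rho, of which 1 is not reported here. Cytokines, markers and Saa2 outside this rule are named for their low levels, and Duoxa1 because it was not tested. Ly6g and Il1b were named after their values were seen, to complete a count. Ages and batches came from the labels, and no mouse was left out. Methylation data were not analysed here.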

Additional observations from a re-analysis of the deposited data

How the results depend on the processing

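Outside the fits that left out a mouse, 811 of 826 values of the 10 genes kept their direction and their side of the threshold. These values do not include the threshold of 0.05, at which 4 members were called at 28 against 24 months and 9 among all ages, without Lcn2 and Saa3 (edgeR adjusted p = 0.0883 and 0.075). Of the others 10 lost the call, 2 gained it and 3 changed sign. With the epithelial marker mean as a covariate, 2 members (Duox2 and Duoxa2) were called at 15 against 9 months, the 28 against 3 month difference of Duox2 became 0.016, and the linear trends of Duox2 and Duoxa2 became 0.12 and 0.14. Saa3 lost its trend with that covariate (-0.28, edgeR adjusted p = 0.198) and its call among all ages (edgeR adjusted p = 0.134, and 0.117 without a filter on low counts). At 24 against 15 months 3 members were called where at least 10 counts in every mouse were asked for, and 3 in a fit of only these ages, since S100a8 and S100a9 were then not tested. Without a filter on low counts 3 were called at 28 against 24 months, where Pigr and Lcn2 were lost (edgeR adjusted p = 0.107 and 0.166). Lcn2 was also lost there with limma-trend (adjusted p = 0.102) and with age by batch terms (edgeR adjusted p = 0.102). The causes were not tested.

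Leaving out each mouse in turn gave 0 to 1 members called at 9 against 3 months, 0 to 1 at 15 against 9 months, 5 to 7 at 24 against 15 months (Duox2 and Duoxa2 gained without replicate 4 of 24 months), 3 to 6 at 28 against 24 months and 4 to 6 with a departure from a line. The 1 member at 9 against 3 months was Nos2 without replicate 14 of 3 months, and at 15 against 9 months Nos2 without replicate 1 of 9 months. Over these fits the 15 against 9 month difference of Saa1 was -0.0069 to 0.11, the 28 against 24 month difference of S100a9 -0.21 to 0.019, and the linear trends of Duox2 and Duoxa2 -0.059 to 0.069 and -0.14 to 0.043.

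Over all genes, 1593 were called at 9 against 3 months, and 759 below 0.05, 882 without a filter, 901 in a fit of only these ages and 847 to 1936 leaving out each mouse. At 15 against 9 months 79 were called, and 185 with the epithelial covariate and 54 to 137 leaving out each mouse. At 24 against 15 months 2476 were called, and 1380 below 0.05 and 1524 without a filter. At 28 against 24 months 2139 were called, and 1302 below 0.05. Departure from a line was called for 2969 genes, and for 1926 below 0.05.

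Replicate numbers did not pair the mice: same-numbered mice of different ages had a median correlation of -0.0065 (161 pairs), and for 4 of 83 mice the closest mouse of another age had the same number. With the replicate number as a block, 0, 0, 5, 4 and 8 members were called in the comparisons from 9 against 3 to 28 against 3 months, 9 among all ages, 8 with a trend and 5 with a departure. The block lost Lcn2 at 28 against 24 months and Saa3 among all ages (edgeR adjusted p = 0.1025 and 0.2), and changed no other call. Of pairs of members, 22 to 25 of 45 passed under other scalings and without batch removal, all positive but 1, and 18 without the 2 farthest mice. Low counts limit S100a8 and S100a9 most.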
